A study of Mus musculus with 44 samples.

Results

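The genomic regions listed for the transcription factor IRF3 in untreated macrophages were compared between cells lacking the DNA methyltransferase Dnmt3a (KO) and wild-type cells (WT). All peaks of the 2 untreated IRF3 lists were used, 1707 for KO and 1169 for WT, or 2876 of the 15489 peaks in the 8 deposited lists of the series. A KO peak that overlapped a WT peak by at least 1 bp was called shared, and the others were called KO-only or WT-only. Of the KO peaks, 693 were shared (40.6%, exact 95% interval 38.3 to 43.0) and 1014 were KO-only. Of the WT peaks, 668 were shared (57.1%, 54.2 to 60.0) and 501 were WT-only. Counts of shared peaks differ by side because a wide peak in one list can span several in the other.

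The KO list merges 2 samples and the WT list 3, out of 44 samples in the series. Both groups were macrophages grown from bone marrow of C57BL/6 mice with 30 ng/ml M-CSF, a growth factor that drives marrow cells to become macrophages, and 10% serum, and were collected from day 8 to day 10 without LPS. The series also has LPS-treated cells (10 ng/ml, 6 hours) and peak lists for NF-kB, which are used below only to say where a peak recurs. The labels give the KO genotype as Dnmt3a knockout, but the sources used here do not say how or in which cells the gene was deleted, nor whether replicates came from separate animals. Neither the deletion nor the macrophage identity can be checked from a peak list, which holds no expression values.

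IRF3 is held in the cytoplasm of resting cells. Sensors of viral nucleic acid and Toll-like receptors activate the kinase TBK1, which phosphorylates IRF3, and the dimer then enters the nucleus and binds GAAA-rich elements at the interferon-beta gene and at interferon-stimulated genes. Dnmt3a adds methyl groups to cytosines of unmethylated DNA and is often mutated in clonal haematopoiesis, in which mutant blood stem cells give rise to an enlarged share of myeloid cells.

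Each list is a merged product with 1 value per peak. There is therefore no spread between replicates, no test of genotype was possible, and intervals given here cover counting error only. The number of replicates differs together with genotype, so their parts in any difference between the lists cannot be told apart. The sources used here give no read depth. A region absent from a list was not listed, which is not a measurement of absent binding.

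Few promoters were reached, and 5 of those reached were built of repeated DNA. Of 32851 RefSeq promoters (GRCm38.p6, the build also named mm10; 250 bases before to 50 after the start), 9 were overlapped by an untreated IRF3 peak. Those under a peak of both lists were Gm36816, Gm46074 and LOC115488002. KO peaks alone touched Gm40237, Gm51701 and Gm52195, and WT peaks alone touched Gm38704, Elobl and Gm38579. The peaks at Gm52195 and Gm38579 are themselves shared, so only their edges differ. The sequences below are shown because they let the repeats, and the IRF motifs in the promoter that has them, be seen directly. They are from RefSeq, read 5′ to 3′ on the strand of the gene. Capitals mark the first copy of the repeated unit in the first 4, and matches to the IRF motif AANNGAAA in Elobl.

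The Gm40237 promoter (a lncRNA gene, chr4:118547156-118547455, plus strand) lay under a KO-only peak, Gm38704 (protein-coding, chr12:20084782-20085081, plus strand) under a WT-only peak, and Gm46074 (lncRNA, chr8:20649078-20649377, plus strand) and Gm36816 (lncRNA, chr6:67008938-67009237, minus strand) under shared peaks. Elobl (protein-coding, chr11:88966882-88967181, minus strand) had a WT-only peak over 95 of its 300 bases, the last ones as printed.
Gm40237: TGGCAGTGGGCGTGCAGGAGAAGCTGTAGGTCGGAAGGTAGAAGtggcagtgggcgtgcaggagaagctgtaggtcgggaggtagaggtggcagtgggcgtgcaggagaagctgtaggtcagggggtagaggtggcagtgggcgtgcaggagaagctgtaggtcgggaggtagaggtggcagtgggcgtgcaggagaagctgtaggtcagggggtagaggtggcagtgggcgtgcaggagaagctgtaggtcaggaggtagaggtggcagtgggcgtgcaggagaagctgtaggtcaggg
Gm38704: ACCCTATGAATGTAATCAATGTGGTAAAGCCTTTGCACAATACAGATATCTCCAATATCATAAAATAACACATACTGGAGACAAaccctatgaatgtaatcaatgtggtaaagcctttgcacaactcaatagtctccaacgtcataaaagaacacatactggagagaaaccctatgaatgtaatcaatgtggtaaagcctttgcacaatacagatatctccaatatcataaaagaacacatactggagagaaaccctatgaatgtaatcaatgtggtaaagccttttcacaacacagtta
Gm46074: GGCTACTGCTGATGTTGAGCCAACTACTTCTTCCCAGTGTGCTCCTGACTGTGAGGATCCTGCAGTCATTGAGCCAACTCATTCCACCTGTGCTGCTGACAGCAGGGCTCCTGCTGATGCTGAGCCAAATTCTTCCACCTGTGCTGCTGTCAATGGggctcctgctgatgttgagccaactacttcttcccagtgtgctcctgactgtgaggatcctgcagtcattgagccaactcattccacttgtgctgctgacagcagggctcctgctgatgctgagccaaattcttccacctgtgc
Gm36816: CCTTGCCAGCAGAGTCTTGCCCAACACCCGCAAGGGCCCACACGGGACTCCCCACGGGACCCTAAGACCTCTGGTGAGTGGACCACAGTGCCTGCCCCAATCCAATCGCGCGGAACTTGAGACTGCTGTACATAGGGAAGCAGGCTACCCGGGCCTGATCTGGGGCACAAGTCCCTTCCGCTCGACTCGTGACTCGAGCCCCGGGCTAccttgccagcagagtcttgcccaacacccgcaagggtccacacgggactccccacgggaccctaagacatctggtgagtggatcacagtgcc
Elobl: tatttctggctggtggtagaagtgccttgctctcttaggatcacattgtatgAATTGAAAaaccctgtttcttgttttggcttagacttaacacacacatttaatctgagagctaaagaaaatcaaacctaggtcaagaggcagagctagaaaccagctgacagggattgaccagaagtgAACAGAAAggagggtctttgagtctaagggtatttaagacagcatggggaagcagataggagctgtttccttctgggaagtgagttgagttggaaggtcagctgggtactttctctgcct

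In the Gm40237 promoter, 96.1% of bases were identical to the base 44 positions further on. In Gm38704 the unit was 84 bases long with 90.3% identity, and LOC115488002 had the same spacing with 88.0%. Tandem copies of 1 short unit are how genes of the C2H2 zinc finger family encode their row of DNA-binding fingers. Gm46074 repeated at 156 bases with 98.6% identity and Gm36816 at 208 bases with 96.7%. Over all promoters, the median identity at the best spacing from 20 to 220 bases was 36.5%, and 47 of 32851 (0.143%) reached 70%. Against that background, 5 of the 9 overlapped promoters reached 70%. The measure, its limits and the 70% mark were chosen after these sequences had been seen, and with spacings up to 200 bases the counts were 4 of 9 and 0.113%. The trait was not particular to untreated IRF3. With spacings up to 220 bases, 3 of 8 (WT) and 4 of 9 (KO) promoters overlapped by IRF3 peaks with LPS reached 70%. For NF-kB the counts were 4 of 7 (WT) and 8 of 17 (KO) untreated, and 8 of 24 (WT) and 8 of 29 (KO) with LPS.

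**Figure D1:**
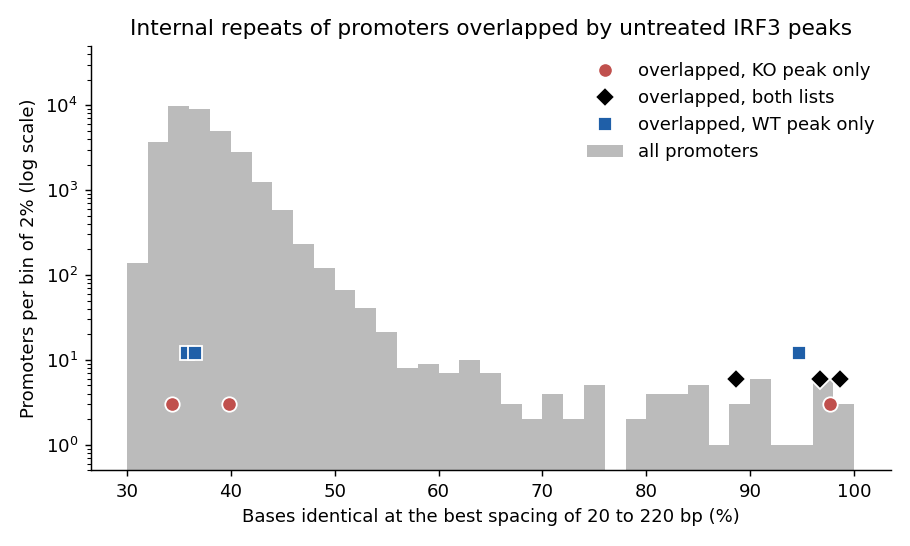
Percent of bases identical at the best spacing of 20 to 220 bp within each promoter (x axis), as a histogram of 32851 promoters (grey, log scale, bins of 2%) with the 9 promoters overlapped by an untreated IRF3 peak as symbols (red circles KO peak only, black diamonds both lists, blue squares WT peak only; their height has no meaning). The 5 promoters at the right reached 88.6% or more, and the other 4 lay with the bulk of promoters.

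The IRF motif occurred in 1 of these promoters. The letters AANNGAAA, searched on both strands, occurred in 23.9% of all promoters and in Elobl, which held AATTGAAA and AACAGAAA. Neither match lay within the 95 Elobl bases that the WT-only peak covered. The tandem form GAAANNGAA, whose letters can overlap those of the first motif, was in 8.56% of all promoters and in 0 of the 9. The NF-kB motif GGAANNNCC was in 18.5% of all and in Gm38579 and Gm51701, whereas AP-1 (TGANTCA, 7.81% of all) and PU.1 (GAGGAAGT, 3.20% of all) matched 0 of the 9. A match is a run of letters and no evidence of a site, and 9 promoters are too few to read a share from. None of 1005 RefSeq miRNA hairpins was overlapped by a peak of either list.

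The best-ranked peaks were mostly common to both genotypes. Peaks were ranked by the deposited p-value, and 88 of the 100 best KO peaks were shared (88.0%, 80.0 to 93.6), as were 96 of the 100 best WT peaks (96.0%, 90.1 to 98.9). The share fell to 51.0% of KO peaks ranked 401 to 500 and to 19% of those ranked 1601 to 1700. In the WT list it was 61.0% at ranks 401 to 500 and 29.0% among the last 69 peaks. KO-only and WT-only peaks thus sat mainly in the lower part of each list.

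**Figure D2:**
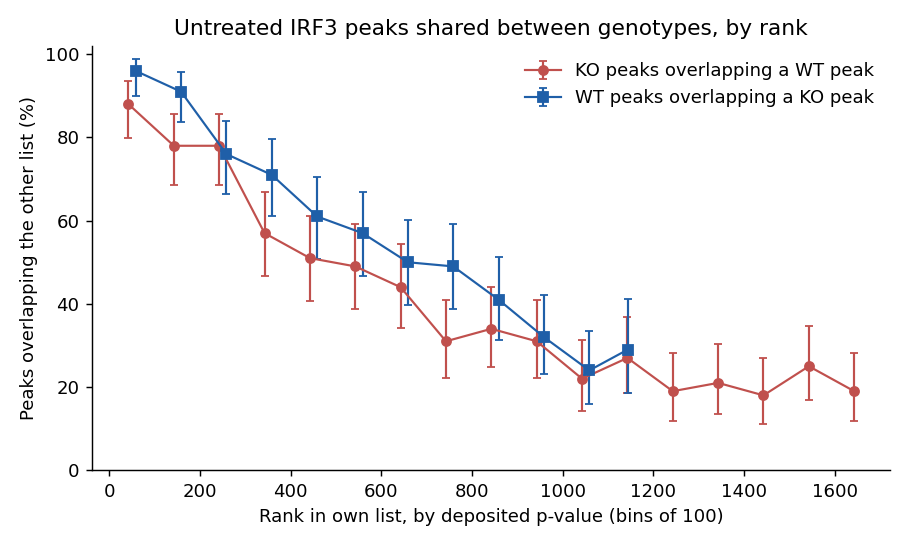
Percent of peaks that overlapped a peak of the other genotype's untreated IRF3 list (y axis) by rank in their own list (x axis, bins of 100; the last WT bin holds 69, and the last 7 KO peaks are not drawn). Red circles are KO peaks and blue squares WT peaks, with exact 95% intervals; both curves fall, from 88.0% and 96.0% to 19% and 29.0%.

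The deposited q-values follow the order of the p-values used for ranking. A q-value limit therefore picks the top of each list again and is no separate support. A q-value under 0.05 was carried by 114 KO peaks (6.68%) and 184 WT peaks (15.7%). Of these, 101 KO peaks (88.6%, 81.3 to 93.8) and 173 WT peaks (94.0%, 89.6 to 97.0) overlapped some peak of the other list, leaving 13 KO-only and 11 WT-only peaks. Among peaks at a q-value of 0.05 or more, 37.2% of KO and 50.3% of WT peaks were shared. The median q-value was 0.799 for KO-only peaks, 0.670 for WT-only peaks, and 0.299 (KO) and 0.244 (WT) for shared ones.

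The surplus of KO-only over WT-only peaks follows from the lengths of the lists and is no result of its own. With both lists limited to q-values under 0.05, 44 KO peaks and 114 WT peaks had no partner, since the WT list is then the longer. With the KO list shortened to the length of the WT list, the shared portions were 49.96% and 49.87%, nearly equal by construction. The largest p-value was 0.0958 in the KO list and 0.0529 in the WT list. If p-values come from combining replicate ranks, those of the KO and WT lists may not be on a common scale.

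The positions of shared peaks are described here without a test, since overlap chose them. There were 709 overlapping pairs, and in 597 of them each peak had 1 partner. The centres of those 597 pairs lay a median of 116.5 bp apart, and over all pairs a median of 100% of the shorter peak and 78.9% of the longer was covered. The ranks of the paired peaks had a Spearman correlation of 0.55 across the 597 pairs, given as a description of peaks chosen for overlapping, with the 2 lists sharing genome and protocol. Just inside the rule, the smallest overlap was 3 bp and 4 pairs overlapped by under 50 bp. Just outside it, 15 KO-only and 8 WT-only peaks lay within 1 kb of a peak of the other list, the nearest at 2 and 35 bp. Most unshared peaks were far from any peak of the other genotype's untreated IRF3 list, at a median of 835109 bp for KO-only and 253812 bp for WT-only.

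Peaks of the 3 classes differed in width. The median was 1653 bp (KO) and 1661 bp (WT) for shared peaks, 967.5 bp for KO-only and 729 bp for WT-only peaks, all far above the 100 to 300 bp to which the chromatin was sheared. Peaks under 500 bp, called narrow here, made up 18.1% (15.8 to 20.7) of KO-only and 36.1% (31.9 to 40.5) of WT-only peaks, against 7.36% and 3.44% of shared KO and WT peaks. Seen the other way, 21.7% of narrow KO peaks and 11.3% of narrow WT peaks were shared, compared with 82.4% and 96.1% of those of 3000 bp or more. A wide interval is also more likely to meet another by 1 bp, so this relation is in part built into the rule. When narrow peaks alone were compared in both lists, sharing was 4.68% of KO and 4.902% of WT peaks.

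**Figure D3:**
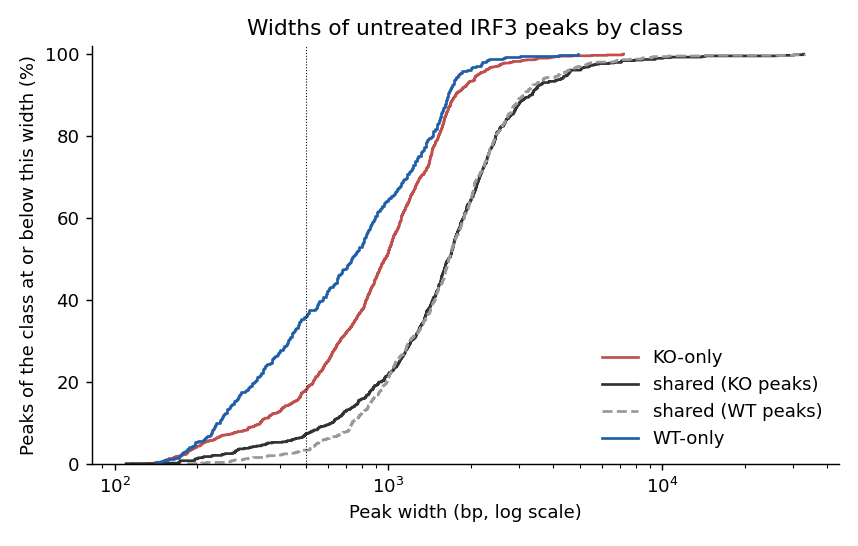
Cumulative percent of peaks (y axis) at or below each width (x axis, bp, log scale) for KO-only (red), WT-only (blue) and shared peaks (dark line KO peaks, dashed grey line WT peaks); the dotted line is at 500 bp. The shared curves coincide at medians of 1653 and 1661 bp, and the WT-only curve lies furthest left.

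The widest peak of both lists was the same region, on chromosome X, 33359 bp (KO) and 33354 bp (WT) from 4932411N23Rik. It spanned 32859 bp in KO (rank 64) and 33115 bp in WT (rank 30), and it was also the widest peak in each of the 6 other lists.

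A narrow shared peak near the top of both lists was in Itgb5, which encodes the integrin beta 5 subunit, a partner of alpha v in binding vitronectin. It lay inside the gene, 19518 bp from the nearer end, at chr16:33849183-33849666 in KO and chr16:33849135-33849542 in WT. It ranked 2 of 1707 in KO and 3 of 1169 in WT, with q-values of 2.8e-06 and 9.8e-07. It was 484 bp wide in KO and 408 bp in WT, while the other 9 best shared peaks with a gene within 100 kb were 1552 bp wide or more in KO. An even narrower shared peak, far from genes (450768 bp from Tnc), ranked 2 in WT (265 bp) and 39 in KO (247 bp). It is named here after its values were seen, and it was in every other list except untreated WT NF-kB. At the Itgb5 peak the authors' signal value, whose scale is not stated, was 69.4 in KO and 31.3 in WT. With LPS the Itgb5 site ranked 2 in both genotypes (322 bp in WT, 351 bp in KO), and it was in none of the NF-kB lists. Of the 693 shared KO peaks, 3 were in all 4 IRF3 lists and no NF-kB list (0.433%), and counted from the WT side 2 of 668 were, since the WT peak near Gm20767 touches NF-kB peaks. The other two lay 4509 bp from the olfactory receptor gene Olfr1055 (171 bp wide in KO, 207 bp in WT) and 26727 bp from Gm20767 (173 and 722 bp).

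The other 9 best shared peaks with a gene within 100 kb were wide and present in all 8 lists. Rank 1 in both genotypes was a 1552 bp (KO) and 1609 bp (WT) peak 80939 bp from the vomeronasal receptor gene Vmn1r2. Those that followed lay near 9230019H11Rik (3060 bp away), Vmn2r129 (1082 bp), Gm15319 (6149 bp), Sfi1 (15690 and 8775 bp) and the major urinary protein gene Mup18 (10174 bp), and inside Arhgap24, which encodes a GTPase-activating protein. Near Cdkn1a, the gene for the cell-cycle inhibitor p21, there was a pair of shared peaks. The nearer, 850 bp from the gene, ranked 27 in KO and 97 in WT, and the further, at 3601 bp, ranked 5 and 19. Both were in all 8 lists.

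Other shared peaks lay within 1 kb of an annotated gene end. They included those at Vmn1r48 (118 bp), at Ltn1 (706 bp), the gene for a ubiquitin ligase of ribosome quality control, at Crebzf (715 bp), a bZIP factor, and at the histone gene H2bc18 (286 bp). At Crebzf the intervals were the same to the base, 672 bp wide in each genotype, at rank 374 in KO and 50 in WT. Among narrow shared peaks, 1 lay 22052 bp from Ly6c2, a monocyte surface antigen (173 bp wide in KO, 294 bp in WT), and it was in 1 other list, that of WT IRF3 with LPS.

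The best-ranked KO-only peaks were mostly regions that the other lists also held. At rank 16 a 1591 bp peak 9913 bp from Gm39469 was in all 6 other lists, including 3 WT lists. Peaks inside Stam2, an endosomal sorting adaptor (rank 32, 2127 bp), near Smgc, a salivary gland protein (rank 57), near Trappc6b, a vesicle-tethering subunit (rank 72), near Tmx3, a thioredoxin-related protein of the endoplasmic reticulum (rank 63), and near Epb41l3, a cytoskeletal adaptor (rank 89), were likewise in all 6. The peak inside Vps45, a regulator of vesicle fusion, was narrow (431 bp, rank 45) and in 5 lists. That inside Nsmce2, a SUMO ligase of the SMC5/6 complex (rank 87), was in the 4 NF-kB lists. Mid1, a microtubule-associated ubiquitin ligase gene on chromosome X, had a pair of KO-only peaks. One, 3911 bp wide and 1286 bp from the gene (rank 61), was in 1 other list, NF-kB in KO with LPS, and the other, 6273 bp wide (rank 73), was in all 6.

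Some narrow KO-only peaks were found in this list alone. The one 19553 bp from Actg1, the gamma-actin gene, was 241 bp wide at rank 182 (q-value 0.102) and in no other list, and neither was the one inside Orc4, an origin recognition subunit (406 bp, rank 698). The peaks at Tmem18 (rank 247) and inside Exoc6b (rank 615) were each in 1 other list, that of untreated KO NF-kB. The remaining named narrow peaks, at Adgrl2, Klhl7, Spata17, Ctnnd2 and Nyap2, ranked 646 to 741.

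Only 6 KO-only peaks (0.592%) lay within 1 kb of an annotated end of a coding gene, against 18 WT-only peaks (3.59%). The KO-only ones included those at Tdpoz3 (rank 561), Zfp991 (808 bp) and Zfp978 (753 bp), Septin14 (637 bp) and Cage1 (825 bp), the last 3 at ranks of 1480 to 1599. The shares among shared peaks were 2.16% (KO) and 2.54% (WT). Positions inside genes made up similar shares, at 29.4% of KO-only, 27.6% of shared KO and 27.5% of WT-only peaks.

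KO-only peaks that recurred in KO IRF3 with LPS and in no WT list of either factor numbered 74 of 1014 (7.30%, 5.77 to 9.08). The best ranked was inside Caps2 (1462 bp, rank 329), and the next was inside Arnt2, a bHLH-PAS factor (1720 bp, rank 411). Others lay 17255 bp from Pmch, the precursor of melanin-concentrating hormone (rank 446), 46364 bp from Fggy, a carbohydrate kinase gene (rank 598), and 65744 bp from Plpp3, a lipid phosphatase gene (rank 704). The lowest q-value among the 10 best was 0.205. In the mirror class, 41 of 501 WT-only peaks (8.18%, 5.94 to 10.9) recurred in WT IRF3 with LPS and in no KO list, a share whose interval overlaps that of KO.

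Many of the WT-only peaks, the best-ranked among them, came from 1 gene cluster. On chromosome 5, the stretch from 14890124 to 15734298 holds 9 coding genes, Gm9758, Speer4e, Gm10354, Gm17019, Gm21149, Gm21190, Gm21083, Speer4d and Speer4c (20 kb was added on either side). Speer genes are a rodent family of near-copies that are known for expression in testis. The WT list had 53 peaks there, 52 of them WT-only, and the KO list had 1, which was shared. These 52 were 10.4% of all WT-only peaks and 5 of the 11 with a q-value under 0.05. The best, 1291 bp wide and 8979 bp from Gm17019, ranked 14 of 1169 (q-value 0.0017), followed within the cluster by ranks 49 (Speer4c), 127 (Gm17019), 146 (Gm9758), 182 (Gm21083) and 189 (Speer4c). Of the 53 WT peaks, 27 were narrow. Most of the WT-only ones, 47, lay between genes.

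The IRF3 lists of LPS-treated cells had the same order at this cluster, with 49 WT and 4 KO peaks, whereas the NF-kB lists held peaks there in both genotypes. The NF-kB counts were 11 (WT) and 30 (KO) without LPS, and 32 and 21 with it. Of the 52 WT-only peaks, 19 overlapped a WT IRF3 peak with LPS, 0 overlapped a KO IRF3 peak with LPS, and 21 were in no other list. Reads from near-copies such as the Speer genes can fit several places, but the sequences of this cluster were not compared here. The sources used here do not say how such reads were handled, and its part in these counts was not tested. Without the region from 14 to 16 Mb, 59.7% of WT peaks were shared in place of 57.1%.

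Other gene clusters differed in other ways. In the zinc finger cluster of chromosome 4 (17 named genes, Gm13212 to Zfp984) the WT list had 43 peaks (29 WT-only) and the KO list 25 (10 KO-only), and with LPS the IRF3 counts were 40 and 33. In the cluster on chromosome 1 that holds Sp100, Sp110 and Sp140, genes for interferon-inducible nuclear body proteins, together with related Gm genes, the counts were 15 in WT and 14 in KO, yet only 2 peaks in each list were shared. The best ranks there were 286 (WT) and 316 (KO), and 11 of the WT and 10 of the KO peaks were narrow. The NF-kB lists also held peaks in this cluster, 5 (WT) and 19 (KO) untreated, and 16 and 12 with LPS. The 12 KO-only and 13 WT-only peaks there lay a median of 9836 and 10616 bp from the nearest peak of the other list. Both genotypes placed 3 such peaks inside Sp110, and they also had 5 (KO-only) and 3 (WT-only) inside Gm7592 and 3 and 4 inside Gm38510. Within Sfi1, a centrosomal gene on chromosome 11 (20 kb added on either side), 10 peaks were WT-only, 3 KO-only and 4 shared. The other lists had the opposite order there. With LPS the IRF3 lists held 8 (WT) and 12 (KO) peaks. The NF-kB lists held 3 (WT) and 30 (KO) untreated, and 14 and 27 with LPS.

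In contrast to the Speer4 cluster, the Tdpoz genes of chromosome 3 had IRF3 peaks mainly in KO, and these were few. Their cluster of 5 genes held 5 untreated KO peaks, all KO-only, and 0 WT peaks, and with LPS 5 KO peaks and 1 WT peak for IRF3. The NF-kB lists held 0 or 1. The best-ranked, 580 bp wide and 4871 bp from Tdpoz3, was at rank 510 of 1707 (q-value 0.312), and the lowest at rank 1528. The nearest untreated WT IRF3 peak was a median of 1650413 bp away. All these clusters were picked because 1 Mb windows there held 5 or more peaks of 1 class, so their counts are descriptions.

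**Figure D4:**
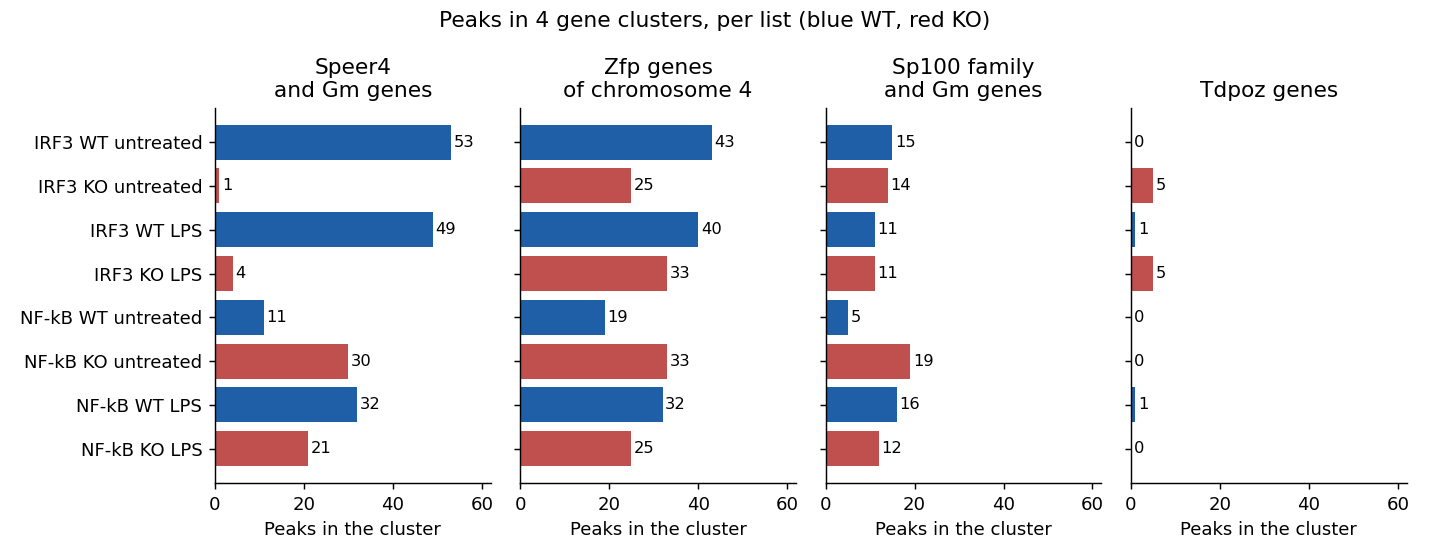
Number of peaks (x axis) in 4 gene clusters for each of the 8 deposited lists (y axis), WT in blue and KO in red. In the Speer4 cluster the untreated IRF3 lists hold 53 (WT) and 1 (KO) peaks; in the Sp100 cluster they hold 15 and 14; in the Tdpoz cluster the 5 peaks are in KO.

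Such dense windows accounted for 119 of the WT-only peaks (23.8%) in 9 windows, and for 30 of the KO-only peaks (2.96%) in 4. Chromosome 5 held 17.2% of WT-only and 6.41% of KO-only peaks, and chromosome X 10.4% and 8.19%. Neither list had a peak on chromosome Y.

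Outside the cluster on chromosome 5, the best WT-only peaks were far from genes, at rank 33 (374 bp, 367754 bp from Arid1b, in all 6 other lists) and rank 42 (438 bp, 263149 bp from Stmn2, in 2 other lists), and both were picked after their values were seen. With a gene within 100 kb, the next were inside E030030I06Rik (736 bp, rank 147), 62636 bp from Vmn2r25 (318 bp, rank 159), inside Tenm1, a teneurin gene (1454 bp, rank 167, in all 6 other lists), and 10156 bp from Gm14147 (1609 bp, rank 195). Narrow peaks lay inside Tbc1d5, a Rab7 regulator (265 bp, rank 205), and 35358 bp from Csf2ra, the GM-CSF receptor alpha chain (184 bp, rank 313, in no other list). At gene ends, WT-only peaks covered an end of Zfp990 (rank 268) and of Gm38704 (rank 266, the repeated promoter shown above), and lay near Vmn1r152, Obox2, Mucl2, Prl2c2 and Amy2a4 at ranks of 737 to 959. Those that recurred in WT IRF3 with LPS and in no KO list included 1 peak 27317 bp from Pglyrp4, a peptidoglycan recognition protein gene (1808 bp, rank 341), and 1 peak 7412 bp from B4galt5, a glycosyltransferase gene (1073 bp, rank 357).

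KO-only peaks recurred in the other lists more often than WT-only peaks did. In no other list were 135 KO-only peaks (13.3%, 11.3 to 15.6) and 205 WT-only peaks (40.9%, 36.6 to 45.4), but 15 shared KO peaks (2.16%). Of those 205 WT-only peaks, 21 lay on chromosome 5 from 14 to 16 Mb. KO-only peaks were also wider (median 967.5 against 729 bp), and a wider interval is more likely to meet another by 1 bp. The part of width in this difference was not tested. For 672 KO-only peaks (66.3%) some WT list held an overlapping peak, and for 223 WT-only peaks (44.5%) some KO list did. Absence from the untreated list of the other genotype was therefore, for most KO-only peaks, not absence from that genotype's lists as a whole. Shared peaks were in all 6 other lists in 53.1% (KO) and 54.8% (WT) of cases.

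By list, 46.4% (43.2 to 49.5) of KO-only peaks were also listed for KO IRF3 with LPS and 32.2% (29.4 to 35.2) for WT IRF3 with LPS. For WT-only peaks the same lists held 18.96% (15.6 to 22.7) and 24.4% (20.7 to 28.4). KO-only peaks were thus listed more often in their own genotype, also with the LPS lists at equal length (40.8% against 32.2%). The IRF3 lists with LPS merge 3 KO and 2 WT samples, so genotype and replicate number cannot be told apart there either. For WT-only peaks the intervals overlap with the LPS lists at full length, and most of that difference was at the Speer4 cluster. Without the region from 14 to 16 Mb of chromosome 5, 103 of 449 (22.9%) were in the WT list. The KO list then held 95 (21.2%). With that region and LPS lists of equal length the shares were 24.4% (WT) and 14.97% (KO). The upper end of the interval was 18.4% for the KO list, and the lower end was 20.7% for the WT list. Here, as for KO-only peaks, both shares are of the same peaks, and some of these are neighbours in a cluster. Whether such intervals overlap, at full or equal length, is therefore no test of the difference. At equal length the KO list held 75 WT-only peaks, 0 of them in that region, against the 103 outside it in the WT list. By count, WT-only peaks were thus also listed more often in their own genotype at equal length, and not at the cluster alone. The equal length was chosen after the data were seen, and the difference was not tested, with the region or outside it.

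The list that held most KO-only peaks was that of another factor, NF-kB in untreated KO cells, at 68.6% (65.7 to 71.5), against 28.9% (26.1 to 31.8) for NF-kB in untreated WT cells. That KO list is the longest of all, with 3065 peaks against 1462, and at equal length the shares were 48.8% and 28.9%. With LPS the NF-kB lists held 55.2% (52.1 to 58.3) of KO-only peaks in WT and 50.5% (47.4 to 53.6) in KO, the other genotype order. WT-only peaks were in the untreated NF-kB lists in 30.1% (KO) and 23.8% (WT) of cases. At equal length that order turned, to 13.4% and 23.8%. With LPS the NF-kB lists held 26.7% (KO) and 29.9% (WT) of WT-only peaks. In all, 845 KO-only peaks (83.3%) and 268 WT-only peaks (53.5%) were in some NF-kB list, so most of the unshared regions were listed with the other antibody as well.

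**Figure D5:**
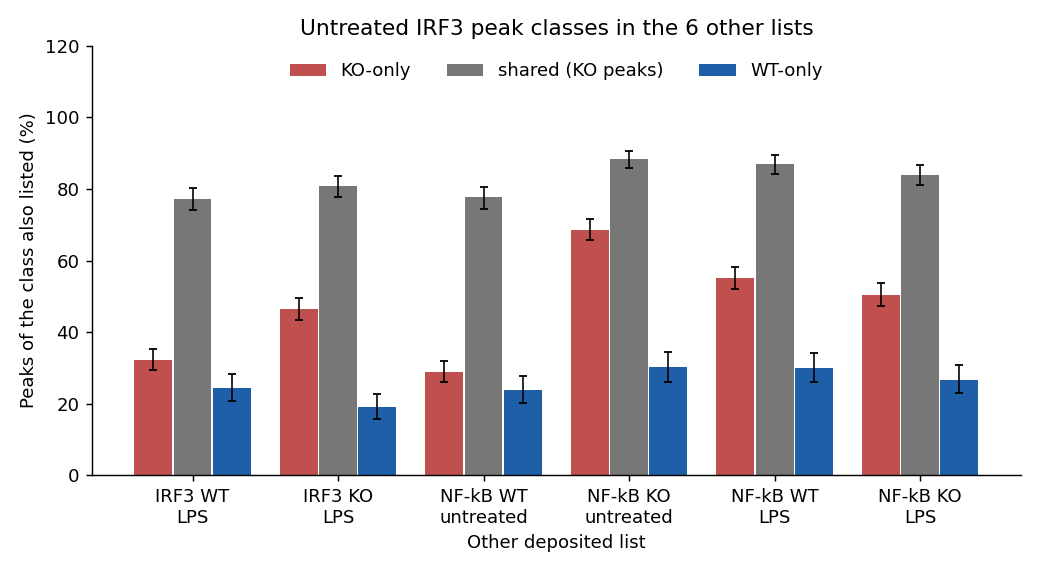
Percent of KO-only (red), shared (grey, KO peaks) and WT-only (blue) untreated IRF3 peaks that overlapped a peak of each of the 6 other deposited lists (x axis), with exact 95% intervals. KO-only peaks range from 28.9% to 68.6% and WT-only peaks from 18.96% to 30.1%, and shared peaks are highest throughout.

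The chosen genes of the interferon and IRF3 pathways had no peak within 10 kb in either list. Of 21887 coding genes, 580 had a KO peak within 10 kb (2.65%) and 365 a WT peak (1.67%), with 250 in both (1.14%), 330 in KO alone (1.51%) and 115 in WT alone (0.525%). Of 46 interferon-stimulated genes matched, 0 had a peak within 10 kb in either list, where a count of 0 allows up to 7.71%. The same held for 22 type I interferon genes, 12 genes of the IRF family, 28 genes of sensing and signalling upstream of IRF3, 36 NF-kB target genes, 21 DNA methylation genes, 22 genes of clonal haematopoiesis and 20 antigen presentation genes. With background shares as low as 2.65% and 1.67%, a count of 0 in lists of this size is no result about those pathways. The Sp100 family described above was not among these symbols.

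In the 16 gene lists as a whole, 295 of 302 symbols were matched and 3 had a peak within 10 kb. Dusp5, an ERK phosphatase and the 1 member among 24 immediate early genes, had a KO-only peak 2910 bp away (2845 bp wide, rank 362, q-value 0.219). All 6 other lists held a peak at that place, WT IRF3 with LPS among them (rank 866). Lepr, the leptin receptor, a stromal marker, had a KO-only peak inside the gene at rank 1688 (q-value 0.911). Fcgr1, a macrophage Fc receptor, counted for WT alone at 9719 bp, but the KO list held the same shared peak at 10185 bp, just beyond the limit. Of the other 29 macrophage genes, and of the markers of T cells, B cells, neutrophils, dendritic cells and erythroid cells, 0 had a peak within 10 kb.

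Between 10 and 50 kb, 2 more genes had a peak in both genotypes. Gadd45a, a stress-response gene linked to active DNA demethylation, had one 25535 bp away in KO (rank 36, q-value 0.0079) and 25649 bp away in WT (rank 126, q-value 0.030), and that peak covers the repeated Gm36816 promoter shown above. Azi2, an adaptor that binds TBK1, had one at 18411 bp in KO (rank 167) and 18793 bp in WT (rank 419). Both peaks were in all 8 lists. WT peaks alone lay 32427 bp from Trim25, the ubiquitin ligase of the RNA sensor RIG-I (256 bp wide, rank 1082), which is the peak over the Elobl promoter, and 26532 bp from Ctsk, the cathepsin K gene (1117 bp, rank 269). The Elobl peak was also in both untreated NF-kB lists.

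Members of repeated gene families near the peaks were counted without a test. Predicted genes with Gm names were 6.07% of all coding genes, 4.55% of those near a KO peak alone, 12.4% of those near peaks of both genotypes and 16.5% of those near a WT peak alone. For zinc finger genes the shares were 1.94%, 2.42%, 4.4% and 6.96% in the same order, and for vomeronasal receptors 1.62%, 2.73%, 3.20% and 5.22%. Olfactory receptors, the largest mouse gene family, went the other way, at 5.07% of all genes, 3.64%, 2.0% and 1.74%. The WT-alone group has 115 genes, so that 8 zinc finger genes and 6 vomeronasal receptors make up its shares, and neighbours in a cluster can share a peak. Some other families had 0 genes near a peak, among them 112 keratin, 73 defensin and 63 serpin genes. Others had a few, such as 2 cytochrome P450 genes near peaks of both genotypes. Of the Scgb genes, 1 was near a KO peak alone and 2 near a WT peak alone. As 2.65% (KO) and 1.67% (WT) of all coding genes had a peak within 10 kb, such low counts are no result about these families.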

How the data were processed

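The analysis used merged IRF3 peak lists of untreated Dnmt3a KO (2 samples) and WT macrophages (3 samples), and 6 further lists for recurrence. Each deposited list gives per peak the authors' signal value, taken as a score with no stated scale, their p-value and their q-value. Per the submitters' processing notes, the build is mm10, and MACS2 2.1.1, HOMER 4.9, Picard 2.8.0 and deepTools 3.5.0 are named without a role. The names of the lists point to ChIP-R, a program that merges replicates by rank. No source used here gives the aligner or the settings. If the p-values and q-values come from combining replicate ranks, they describe that and not enrichment over input.

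Peaks were ranked by p-value, ties by signal, width and position. Overlap meant 1 bp or more. Genes were coding spans of GRCm38.p6 on chromosomes 1 to 19, X and Y, without strand or exons, so distances run to gene ends and exons are not told from introns. The promoter table has no chromosome 18 entries. Shares have exact Clopper-Pearson 95% intervals from scipy 1.17.1 (Python 3.11.15, pandas 2.3.3). Counting steps were tested on simulated data.

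Named peaks followed a rule per class: the 10 best-ranked, and the 10 best-ranked under 500 bp, with a gene within 100 kb; up to 15 within 1 kb of a gene end; up to 10 found with LPS in their own genotype alone; and list genes with a peak within 10 kb. Not every peak the rule names is described. The result for 1 gene is left out of the text. Members, lists and rules were chosen with earlier results of these data known. Not used here were peak sequences and the bisulfite, ATAC-seq and input samples.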

Additional observations from a re-analysis of the deposited data

How the results depend on the processing

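No paired analysis was possible because each group has 1 merged list, and for the same reason no replicate could be left out. The KO and WT shares of shared peaks, 40.6% and 57.1%, moved beyond their intervals to 33.2% and 48.4% when 50% of both peaks had to overlap, to 61.4% and 38.0% at q-values under 0.05, to 49.96% and 49.87% at equal list length, to 23.8% and 37.3% without regions found in all 8 lists, to 4.68% and 4.902% among narrow peaks, and to 50.6% and 48.8% with p-values up to the largest of the WT list. The last was chosen after seeing the data, as were equal lengths of the LPS and NF-kB lists and the removal of the chromosome 5 region. Genes near a KO peak alone numbered 750 within 50 kb, 16 at q-values under 0.05 and 215 at equal length, in place of 330. Genes near a WT peak alone numbered 238 within 50 kb and 44 at q-values under 0.05, in place of 115, so the order of the genotypes turned at that limit, where the WT list is the longer. Of 36 recomputed shares and gene counts, 19 stayed within the interval or within 1.5 times. With depth not given, a region below a list's end cannot be told from an unbound one.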
